A study of Mus musculus with 6 samples.

Results

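The cell cycle and mitosis genes considered here are 42 genes that carry a cell from growth signals through DNA replication to chromosome separation, from the D-type cyclins to the spindle checkpoint. Members are all probe sets whose annotation gives exactly 1 symbol and that symbol is on the list. This gave 97 probe sets for 41 of the 42 genes, among 45037 probe sets in all. The mitotic cyclin gene Ccnb1 is not analysed here. Signal is the MAS5 value, a linear brightness that the authors' software averages robustly over the probes of a probe set. Of the 97 probe sets, 87 passed a filter on dim signal (mean above the 40th percentile, a signal of 14.7), and they cover all 41 genes. Each of the 41 is described by its brightest kept probe set unless another is named, and probe sets are given by their array identifiers.

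Signals come from 6 oligonucleotide arrays of mouse kidneys at embryonic day 12.5, 3 of kidneys called normal and 3 of conditional knockout kidneys with the genotype Hoxb7-Cre,Gfp and a deficient beta-catenin gene (Ctnnb1). The targeted allele carries loxP sites around exons 2 to 6, and the Hoxb7 promoter drives Cre in the ureteric bud lineage, so the other cells of the kidney keep the gene. Genotype beyond "normal" is not given for the controls, and the labels name no agent for either group. Dissected kidneys were distributed at random over 3 vials per group, titled as biological replicates, with the number of animals per vial not given, so that p-values measure the spread between vials and part of that spread may be technical. Group names follow the sample titles, since the description field of the knockout samples repeats the words for normal kidneys. In bulk tissue, fewer cells of a type and less RNA per cell cannot be told apart.

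Cyclins are regulatory subunits that switch on cyclin-dependent kinases in turn: D-type cyclins with Cdk4 and Cdk6 in G1, E-type cyclins with Cdk2 at the start of S phase, cyclin A with Cdk2 and Cdk1 through S and G2, and B-type cyclins with Cdk1 in mitosis. E2F factors switch on replication genes at the G1/S border, while a later wave of genes, many read through a promoter element called CHR, peaks in G2 and mitosis. In the early kidney, ureteric bud tips and the mesenchyme that caps them both divide rapidly. Ccnd1 and Myc are widely used readouts of canonical Wnt signalling, the pathway that beta-catenin carries to the nucleus.

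A few facts of the arrays bear on what follows. The targeted gene was not lower in knockout arrays: the brightest Ctnnb1 probe set read 5707, 6760.2 and 6549 on normal arrays 1 to 3, against 6777, 6779 and 6585.5 on knockout arrays 1 to 3. The other probe sets gave the same direction, and the 3 log2 differences were 0.09, 0.12 and 0.16. Probes outside the floxed exons would check nothing, and where these lie is not analysed here. Markers of the labelled tissue were present on all 6 arrays, with the progenitor factor Six2 at 1289, 859 and 658.5 on the normal arrays and 580.1, 566 and 800.2 on the knockout arrays and the stromal factor Foxd1 at 1745, 1715 and 1692 on the normal arrays and 1665, 2203 and 1933 on the knockout arrays. The progenitor list (9 of 10 kept) summed to between 5524 and 6163 in normal and between 5032 and 5873 in knockout arrays. At an unadjusted limma p under 0.05 its Osr1 (log2 difference 0.61) and Meox1 (0.66) were higher and Crym (-0.38) lower. The stromal list (8 of 8 kept) summed to between 15480 and 19329 and between 15012 and 17473. There Meis1 (0.30) was higher and Pdgfrb (-0.33) lower at that level. Of all genes, 6.14% were higher and 5.57% lower. Of 11 ureteric bud markers 10 were kept and Hoxb7 was not, with summed signals from 4061 to 4816 on normal and from 3451 to 5299 on knockout arrays. Of 8 marker lists, that for skeletal muscle stood out: 10 of 11 markers were kept, 6 of them higher at an unadjusted limma p under 0.05, and their summed signal ran from 509 to 613 in normal and from 686 to 7378 in knockout arrays. The chromaffin and neural list (7 of 9 kept) summed to between 253 and 1388 in normal and between 286 and 1115 in knockout arrays, with its highest mean log2 level in replicate 1 of each group. Macrophage markers (9 of 9 kept) summed to between 451 and 911 and between 838 and 1214, and erythroid markers (7 of 8 kept) to between 12664 and 18196 and between 15813 and 22179. None of the kept markers of these lists read 0 on any array.

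Most cell cycle genes had nearly the same signal in both groups, and 1 gene rose by its only probe set. Nuf2, a subunit of the Ndc80 complex that ties kinetochores to spindle microtubules, was 2.14-fold higher in knockout kidneys. A weak probe set of Bub1, the spindle checkpoint kinase, also rose, but the bright probe set of the same gene did not. Of the 87 member probe sets these 2 passed the threshold (limma, Benjamini-Hochberg adjusted p under 0.05), both higher, where 0.581% of all 27022 kept probe sets passed. The median log2 difference (knockout minus normal) of the 87 was -0.05, beside -0.01 for all kept probe sets, and it was 0.02 without normal replicate 2 and -0.11 without both replicates numbered 1. By brightest probe set the median over 41 genes was -0.02, beside 0.00 for all 12464 genes, and 24 of the 41 (58.5%) were below 0, beside 50.6% of all genes. Over the 46 other kept probe sets of these genes the median was -0.11, and 65.2% were below 0.

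**Figure D1:**
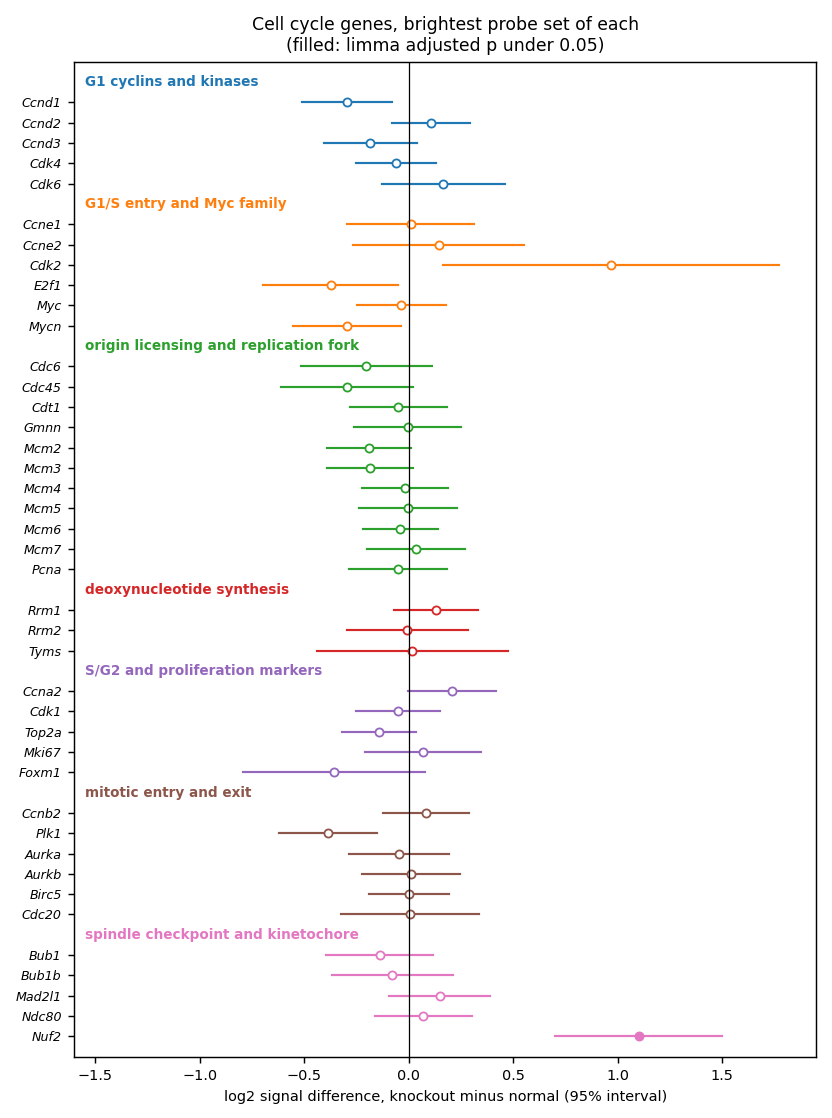
Log2 difference between knockout and normal kidneys (x axis) for the brightest probe set of each of 41 cell cycle genes, grouped by role, with points at the estimate and lines at the 95% interval of the limma fit. Filled points passed the adjusted threshold; Nuf2 at 1.10 is the filled one, and 39 of the 41 intervals lie within a 2-fold change either way.

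By brightest probe set, the arrays set bounds on what could have been missed in whole-kidney signal, not in the ureteric bud alone. For 39 of the 41 genes the 95% interval of the difference lay wholly within a 2-fold change in either direction, and for 35 it lay within a 1.5-fold change. The exceptions at 2-fold by this measure were Nuf2 and Cdk2. Of the 46 other kept probe sets of these genes, 37 had intervals within a 2-fold change and 28 within a 1.5-fold change. Among the 87 probe sets, 10 had an unadjusted limma p under 0.05 and were lower in the knockout (11.5%, from 7 genes), beside 5.72% of all kept probe sets. Another 5 were higher (5.75%, from 4 genes), beside 5.74%. After shifting the arrays to a common median the split of 10 lower and 5 higher became 4 and 6. After giving the arrays a common distribution (quantile normalization) it became 14 and 6. The count of 10 was 4 without the intensity trend, 2 without knockout replicate 2, 4 without normal replicate 2 and 16 without normal replicate 3. By brightest probe set 4 of 41 genes were lower and 2 higher at that level, where the background is 5.57% and 6.14%. Knockout arrays lay entirely below the normal arrays for 12 of 87 probe sets and entirely above for 7, beside 8.69% and 9.17% of all kept probe sets.

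Nuf2 had 1 probe set (1430811_a_at). It read 319, 204 and 336 on normal arrays 1 to 3, against 612.5, 568 and 618 on knockout arrays 1 to 3. The lowest knockout array was well above the highest normal array, and normal replicate 2 was the lowest of all. The normal mean was 286 ± 71.9 (SD, n = 3) and the knockout mean 599 ± 27.4 (SD, n = 3), and the log2 difference was 1.10 (SE 0.18) with a 95% interval from 0.700 to 1.499 (limma adjusted p = 0.0351). The size held with any array left out, between 0.87 and 1.23, but the adjusted p was 0.145, 0.138 and 0.129 without knockout replicates 1, 2 and 3, 0.186 without both replicates numbered 1, and 0.182 without the intensity trend. In knockout replicate 3, where Nuf2 read 618, the muscle markers stood at 0.02 (mean log2 relative to the normal arrays), against 1.52 and 3.82 in knockout replicates 1 and 2. In the same array the macrophage and erythroid markers stood at 0.38 and 0.98, and their part in the result was not tested.

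The other subunits of the same complex had nearly equal signal in both groups. Ndc80, which pairs with Nuf2 along its length, read 224, 232 and 242 on the normal arrays and 253, 246.5 and 233 on the knockout arrays. That is a log2 difference of 0.07 (SE 0.10) with an interval from -0.16 to 0.30, which does not reach the lower bound of Nuf2. Spc24 and Spc25, the pair that anchors the complex to the inner kinetochore, stood at 0.04 (SE 0.10) and 0.14 (SE 0.12) with intervals from -0.20 to 0.27 and from -0.14 to 0.42. The checkpoint protein Mad2l1, which senses unattached kinetochores, stood at 0.15 (SE 0.11).

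The promoter windows of the members were searched for elements known from cell cycle genes. RefSeq gave 35 windows of 300 bases around the annotated start for 33 members (GRCm38.p6), and Aurkb, Ccna2, Ccnd1, Ccnd2, Ccne2, Foxm1, Gmnn, Mcm4 and Myc had none in the table. The letters, counted on both strands, were TTTGAA or TTTAAA for CHR, TTTCCCGC, TTTGGCGC, TTTCGCGC or TTTGCCGC for E2F sites, and CCAAT. A CHR match was present in 6 of 6 windows of the mitotic entry and exit group (Ccnb1 included), in 3 of 3 of the S/G2 group and in 17 of the 35 (48.6%), beside 27.6% of all 32851 windows. E2F letters were present in 6 of 10 windows of the replication group, in 0 of the 6 mitotic windows and in 9 of the 35 (25.7%), beside 2.26%. The share of replication windows with a CHR match was 30.0%. Such a match was present in 2 of 5 windows of the checkpoint and kinetochore group and in 2 of 4 of the G1/S group. It was present in 1 of 3 windows of the deoxynucleotide group and in 0 of 4 of the G1 group. CCAAT was present in 22 of the 35 (62.9%), beside 37.4%. These matches describe the letters and are not measured binding sites.

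The windows of 4 genes are shown with matches in capitals. They are the gene that rose, its binding partner that did not, and Plk1 and Mycn, which had lower signal but did not pass. Sequences are from RefSeq, 5′ to 3′ on the strand of the gene: Nuf2 (chr1:169531415-169531714, minus strand), Ndc80 (chr17:71526808-71527107, minus strand), Plk1 (chr7:122159185-122159484, plus strand) and Mycn (chr12:12941787-12942086, minus strand), all in GRCm38.p6.
Nuf2: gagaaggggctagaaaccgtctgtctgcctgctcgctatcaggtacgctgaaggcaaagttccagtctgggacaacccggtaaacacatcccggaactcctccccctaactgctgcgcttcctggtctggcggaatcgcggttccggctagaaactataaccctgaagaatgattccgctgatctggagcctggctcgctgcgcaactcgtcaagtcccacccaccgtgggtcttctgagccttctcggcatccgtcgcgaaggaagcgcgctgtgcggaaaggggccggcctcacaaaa
Ndc80: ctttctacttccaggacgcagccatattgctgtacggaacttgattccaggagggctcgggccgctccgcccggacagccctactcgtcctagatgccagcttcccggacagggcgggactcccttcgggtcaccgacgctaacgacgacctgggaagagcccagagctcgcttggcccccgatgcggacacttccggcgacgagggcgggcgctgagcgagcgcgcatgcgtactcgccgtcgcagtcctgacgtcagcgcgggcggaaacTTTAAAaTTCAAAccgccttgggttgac
Plk1: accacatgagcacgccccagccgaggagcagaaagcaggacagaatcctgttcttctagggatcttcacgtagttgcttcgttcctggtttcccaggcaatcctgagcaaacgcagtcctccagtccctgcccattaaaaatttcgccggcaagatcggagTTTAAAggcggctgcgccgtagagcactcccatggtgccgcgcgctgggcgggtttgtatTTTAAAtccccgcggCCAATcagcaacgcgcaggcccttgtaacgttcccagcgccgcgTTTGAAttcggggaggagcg
Mycn: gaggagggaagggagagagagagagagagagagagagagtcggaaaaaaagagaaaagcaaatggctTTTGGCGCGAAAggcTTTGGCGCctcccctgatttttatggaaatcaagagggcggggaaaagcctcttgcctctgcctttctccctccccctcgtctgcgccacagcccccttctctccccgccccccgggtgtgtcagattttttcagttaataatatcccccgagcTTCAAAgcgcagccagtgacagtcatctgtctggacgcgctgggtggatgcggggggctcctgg
Nuf2 has none of the 3 elements in this window, and Ndc80 has 2 adjacent CHR matches near the end. Plk1 holds 3 CHR matches and a CCAAT box. Mycn holds 3 E2F matches, of which the first overlaps the next, and 1 CHR match. The log2 differences of the 4 genes were 1.10, 0.07, -0.39 and -0.30 in this order. Among the other members at an unadjusted limma p under 0.05 by brightest probe set, E2f1 (-0.37) has none of the 3 elements. Ccnd1 (-0.30) has no window, and Cdk2 (0.97) has 1 E2F match and 1 CCAAT match. A relation between these letters and the differences was not tested.

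Nuf2 lies on chromosome 1 directly beside Rgs5 in RefSeq gene order (GRCm38.p6), a regulator of G-protein signalling. The neighbours were looked at after the values of Nuf2 were seen. All 4 kept probe sets of Rgs5 rose, the brightest by 1.78 (SE 0.18) after readings of 449, 309 and 317 on the normal arrays and 1375, 963.5 and 1353 on the knockout arrays. Among genes within 5 steps on either side, the other brightest probe sets pointed both ways: Mgst3 at 0.41 (SE 0.14), Rxrg at 0.29 (SE 0.52), Rgs4 at 0.86 (SE 1.19), Hsd17b7 at -0.59 (SE 0.15) and Ddr2 at 0.35 (SE 0.15). The other kept probe set of Ddr2 stood at 1.12 (SE 0.36), and those of Hsd17b7 ran from -0.53 to -0.37. At an unadjusted limma p under 0.05, Mgst3, Rgs5 and Ddr2 were higher and Hsd17b7 lower by brightest probe set, each without overlap between groups. Of all genes, 6.14% were higher and 5.57% lower at that level. Of the 6 neighbours with a kept probe set, Rgs5 alone passed the adjusted threshold of the limma fit. Whether the rise of Nuf2 is related to its position was not tested.

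**Figure D2:**
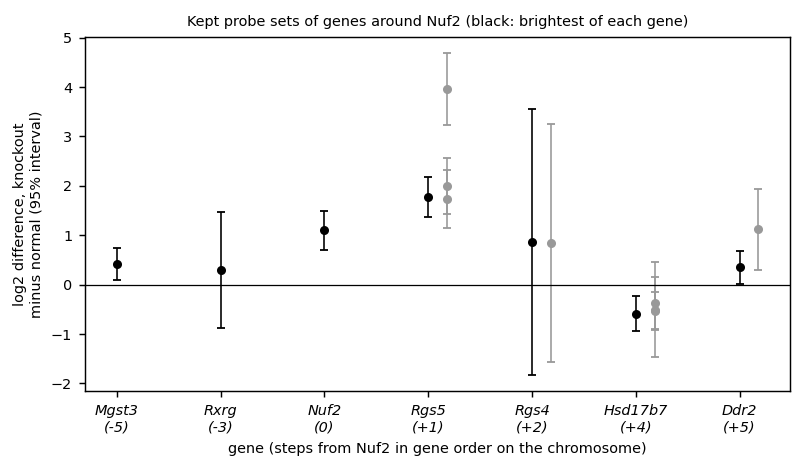
Log2 difference (knockout minus normal, y axis) with its 95% interval for every kept probe set of the measured genes within 5 steps of Nuf2 in gene order (x axis), with the brightest probe set of each gene in black and the others in grey. Nuf2, Rgs5, Mgst3 and Ddr2 stand above 0 with all their intervals, while Hsd17b7, 4 steps away, lies below 0 by its brightest probe set.

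Bub1 shows how far probe sets of 1 gene can part. The bright one, 1424046_at, read 1013, 1287 and 1208 on the normal arrays and 1089, 947.5 and 1140.5 on the knockout arrays, with groups that overlap and a log2 difference of -0.14 (SE 0.11). The dim one, 1438571_at, read 39.3, 47.4 and 60.4 on the normal arrays and 145, 95.2 and 128 on the knockout arrays, with every knockout array above every normal array. Its difference was 1.33 (SE 0.23), with a limma adjusted p of 0.0475 just inside the threshold. Among knockout arrays it was lowest in replicate 2, where muscle markers were highest, and their part in the result was not tested. It no longer passed with any single array left out (adjusted p from 0.0625 to 0.192), without the filter (0.0526), with array weights (0.0505), without the intensity trend (0.160), without both replicates numbered 1 (0.290) or with the replicate block (0.0842), and the mean of both probe sets gave 0.59 (adjusted p = 0.150 by limma). A rise of Bub1 therefore holds for the dim probe set alone. Its partner kinase Bub1b, or BubR1, part of the inhibitor of the anaphase-promoting complex, was -0.08 and -0.22 by its brighter probe sets and 0.85 by the dim 1447362_at, which read 16.8, 7.1 and 12.7 on the normal arrays and 16, 19.3 and 28.8 on the knockout arrays. The bright one, 1447363_s_at, read 545, 770.4 and 605 on the normal arrays and 619, 574 and 607 on the knockout arrays, and its groups overlap.

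**Figure D3:**
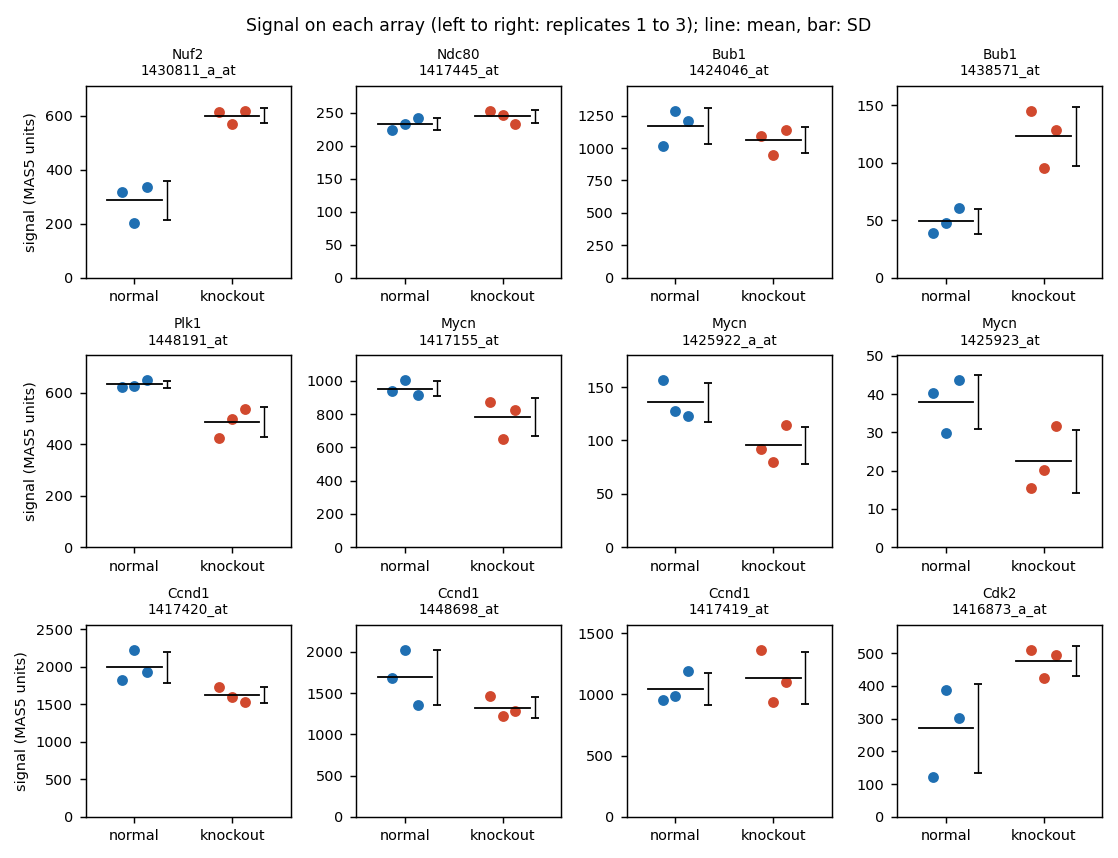
Signal in MAS5 units (y axis, from 0) on each of the 6 arrays for 12 probe sets of Nuf2, Ndc80, Bub1, Plk1, Mycn, Ccnd1 and Cdk2; points are arrays in replicate order, the line is the mean and the bar the SD of 3 arrays. Nuf2, the dim Bub1 probe set and Cdk2 lie fully above in the knockout, and Plk1, Ccnd1 1417420_at, Mycn 1417155_at and Mycn 1425922_a_at fully below. The others overlap, the bright Bub1 probe set and Ndc80 among them, and normal replicate 1 is the low point for Cdk2.

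Genes of mitotic entry and exit were almost level, with 1 exception in Plk1. This kinase drives centrosome maturation and mitotic entry. Its promoter window is the one above with 3 CHR matches, and its signal was 621.5, 628 and 649 on normal arrays 1 to 3, against 425, 498 and 536 on knockout arrays 1 to 3. The normal arrays lie close together, and all 3 knockout arrays are below them. The log2 difference of -0.39 (SE 0.10) had the smallest p among members with lower signal (unadjusted p = 0.00477, limma adjusted p = 0.215) and did not pass. The remaining 5 genes ran from -0.05 to 0.08. Ccnb2, a B-type cyclin, was 0.08 (SE 0.09), the kinase Aurka -0.05 (SE 0.11) and its relative Aurkb 0.01 (SE 0.10). Birc5, or survivin, which holds Aurkb at centromeres, read 1269.6, 1477.5 and 1350.4 on the normal arrays and 1339, 1318 and 1442 on the knockout arrays, a difference of 0.00 (SE 0.08). Cdc20, the activator of the anaphase-promoting complex, stood at 0.00, -0.05 and -0.14 by its 3 probe sets.

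The 5 genes typical of S and G2 phases, some of them used as proliferation markers, had no probe set with an unadjusted limma p under 0.05. Mki67, which coats mitotic chromosomes and marks cycling cells, read 1746, 2382 and 2338 on normal arrays 1 to 3, against 2404, 2205 and 2116 on knockout arrays 1 to 3. Its lowest value is in normal replicate 1 and the groups overlap, at 0.07 (SE 0.12). The mitotic kinase Cdk1 read 1482, 1773.5 and 1576 on the normal arrays and 1601, 1456 and 1596 on the knockout arrays, a difference of -0.05 (SE 0.09) with an interval from -0.25 to 0.15. Top2a, which untangles replicated DNA, read 2575, 2872 and 2593 on the normal arrays and 2568, 2313 and 2394 on the knockout arrays. Its knockout arrays all lie below the normal ones, by little: the difference was -0.14 (SE 0.08), and -0.20 by its other kept probe set. For Ccna2, cyclin A, the probe sets pointed opposite ways. The brightest, 1417910_at, read 1009, 1189 and 1036 on the normal arrays and 1229.9, 1163 and 1335 on the knockout arrays and stood at 0.21 (SE 0.09), and 1417911_at read 1305, 1142 and 1119 on the normal arrays and 1056, 941 and 1173 on the knockout arrays and stood at -0.17 (SE 0.10). Foxm1, the factor that switches on G2 genes, stood at -0.36, -0.32 and -0.11 by its 3 kept probe sets, and none passed.

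The largest group, 11 genes that license origins and run the replication fork, was narrowly spread around a small negative value. By brightest probe set 10 of 11 stood below 0, with a median of -0.05, none had an unadjusted limma p under 0.05, and the extremes were -0.29 and 0.03. No probe set of this group reached the adjusted threshold. Pcna, the sliding clamp of the fork, read 5185.5, 6741 and 5907 on normal arrays 1 to 3, against 5779.9, 5299.9 and 6059 on knockout arrays 1 to 3. Both its lowest and its highest reading are normal arrays, and its difference was -0.05 (SE 0.10). The subunits of the MCM helicase, loaded on origins as a ring, stood at -0.19 for Mcm2, -0.19 for Mcm3, -0.02 for Mcm4, 0.00 for Mcm5, -0.04 for Mcm6 and 0.03 for Mcm7. Their 95% intervals together ran from -0.39 to 0.27. By brightest probe set Mcm2 alone of the 6 had groups that do not overlap, with 1299, 1221 and 1091.5 on the normal arrays and 1072, 998.5 and 1089 on the knockout arrays. Its other kept probe set, 1434079_s_at, had overlapping groups at -0.02 (SE 0.15). The loading factors Cdc6 and Cdt1 stood at -0.20 (SE 0.14) and -0.05 (SE 0.10), and Gmnn, or geminin, the inhibitor of Cdt1, at -0.01 (SE 0.11). Cdc45, which activates the loaded helicase, had the lowest value of the group at -0.29 (SE 0.14), with readings of 206, 254 and 196 on the normal arrays and 197, 172 and 165 on the knockout arrays.

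Dim probe sets of Mcm3 and Mcm5 departed from the rest. The probe set 1459658_at of Mcm5 read 18.8, 19.8 and 10.6 on the normal arrays and 25, 29.4 and 27.3 on the knockout arrays, at 0.78 (SE 0.35), while the bright ones stood at 0.00 and -0.19. The brightest, 1436808_x_at, read 2178, 2803 and 2801 on the normal arrays and 2528, 2612 and 2578.5 on the knockout arrays. For Mcm3, 1420029_at stood at 0.59 (SE 0.35) from readings of 26.8, 61.7 and 68.4 on the normal arrays and 62.5, 92 and 66.5 on the knockout arrays, and the 4 brighter ones ran from -0.25 to 0.05. Of these the brightest, 1420028_s_at, read 1559, 1762 and 1668 on the normal arrays and 1467.5, 1330.5 and 1596 on the knockout arrays. No probe set of either gene passed.

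Enzymes of deoxynucleotide supply lay near 0 by their brightest probe sets. Rrm1, the large subunit of ribonucleotide reductase, stood at 0.13 (SE 0.09) and Rrm2, its S-phase subunit, at -0.01 (SE 0.13). The next brightest probe set of Rrm2, 1448226_at, stood at -0.18 (SE 0.11). A dimmer Rrm2 probe set, 1416120_at, read 900.5, 1061 and 971 on the normal arrays and 853, 802 and 856 on the knockout arrays, without overlap, and had an unadjusted limma p of 0.033 at -0.22 (SE 0.09). Tyms, thymidylate synthase, was weak on this array: 1442192_at stood at 0.02 (SE 0.20) and 1438690_at at -0.60 (SE 0.31) after 69, 60 and 56.6 on the normal arrays and 67.1, 30.1 and 33.1 on the knockout arrays, so that knockout replicates 2 and 3 are low and replicate 1 is not. The first of these read 61.4, 52.2 and 50.9 on the normal arrays and 59.4, 47 and 60.5 on the knockout arrays.

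At the G1/S border, Mycn, a Myc family member prominent in embryonic progenitors, had lower signal by all 3 of its probe sets: each was lower in the knockout at an unadjusted limma p under 0.05, and none passed over all probe sets. The brightest read 939.8, 1003 and 917 on normal arrays 1 to 3, against 869, 653 and 822 on knockout arrays 1 to 3. Its groups do not overlap, and knockout replicate 2 is the lowest. The differences were -0.30 (SE 0.11), -0.51 (SE 0.18) and -0.80 (SE 0.34), with limma adjusted p-values of 0.393, 0.347 and 0.42. In 1425922_a_at the arrays read 156, 128 and 123 on the normal arrays and 92, 80 and 114 on the knockout arrays, also without overlap. The dimmest, 1425923_at, read 40.3, 29.9 and 43.6 on the normal arrays and 15.4, 20.3 and 31.6 on the knockout arrays, with knockout replicate 3 inside the normal range. Myc itself, by its 1 probe set, read 472.5, 502 and 482 on the normal arrays and 509, 435.5 and 478 on the knockout arrays, level across groups at -0.04 (SE 0.09) with an interval from -0.25 to 0.18. The probe sets of a single gene share its RNA and are not replicates of the condition.

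Other G1/S genes were mixed. E2f1, the factor that induces replication genes, read 202, 202 and 183 on the normal arrays and 162, 127 and 167.5 on the knockout arrays, without overlap, at -0.37 (SE 0.14) (unadjusted p = 0.028, limma adjusted p = 0.387), and its other kept probe set stood at -0.18 (SE 0.23). Cyclin E genes gave 0.01 (SE 0.13) for Ccne1 by its brightest probe set and -0.34 (SE 0.13) by the other, 1416492_at, whose arrays read 345, 356 and 280.5 on the normal arrays and 274, 231 and 266 on the knockout arrays without overlap. The brightest, 1441910_x_at, read 386, 339 and 468 on the normal arrays and 369, 441 and 383 on the knockout arrays. Ccne2 stood at 0.14 (SE 0.18). Cdk2, their kinase, read 122, 388 and 303 on normal arrays 1 to 3, against 510.5, 425 and 493 on knockout arrays 1 to 3, without overlap. Its difference of 0.97 (SE 0.36) had an unadjusted limma p of 0.0235 and did not pass (adjusted p = 0.374). Normal replicate 1 was far below the other normal arrays, and without it the difference was 0.47 (limma adjusted p = 0.263).

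Among G1 cyclins and kinases, Ccnd1, the cyclin D gene often used as a Wnt readout, gave lower signal by its 2 brightest probe sets, at an unadjusted limma p under 0.05, and not by the dimmest. The brightest read 1818, 2223.5 and 1932 on normal arrays 1 to 3, against 1734, 1597 and 1526 on knockout arrays 1 to 3, with all knockout arrays below the normal ones, at -0.30 (SE 0.09). The next, 1448698_at, read 1686, 2026 and 1362 on the normal arrays and 1467, 1226 and 1282 on the knockout arrays, with overlapping groups, at -0.34 (SE 0.14). The dimmest, 1417419_at, read 951, 984.5 and 1193 on the normal arrays and 1363.5, 938 and 1099 on the knockout arrays and stood at 0.11 (SE 0.14). None passed. Ccnd2 had 7 kept probe sets, from -0.16 to 0.50. Its brightest read 3032.5, 3579.8 and 3535 on the normal arrays and 3744.5, 3567 and 3592.5 on the knockout arrays and stood at 0.11 (SE 0.08), whereas 1448229_s_at read 775, 538 and 762 on the normal arrays and 1058.5, 889 and 963 on the knockout arrays and stood at 0.50 (SE 0.14) (limma adjusted p = 0.253). At an unadjusted limma p under 0.05, 1416123_at was also higher, with 294, 158 and 273 on the normal arrays and 336, 307 and 347.5 on the knockout arrays and a difference of 0.50 (SE 0.21), and 1434745_at was lower, with 3083, 3288 and 3007.5 on the normal arrays and 2727, 2808 and 2830.3 on the knockout arrays and -0.16 (SE 0.07). Both lack overlap between groups, so that probe sets of this 1 gene separate the groups in opposite directions. Ccnd3 read 1165, 1027 and 955 on the normal arrays and 852, 973.5 and 940.2 on the knockout arrays by its brightest probe set and stood at -0.18 (SE 0.10), against 0.48 (SE 0.47) for 1438805_at, which read 24.5, 8.3 and 12.5 on the normal arrays and 13.9, 24.5 and 20.2 on the knockout arrays. The kinases that bind the D cyclins were level, with Cdk4 at -0.06 (SE 0.08) and Cdk6 at 0.17 (SE 0.13), and their intervals lie within a 1.5-fold change.

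Disagreement between probe sets was common in the list. Of 26 genes with several kept probe sets, 16 had both signs and 10 had opposite signs more than 0.3 apart: Ccnd1, Ccnd2, Ccnd3, Ccne1, Mcm3, Mcm5, Tyms, Ccna2, Bub1 and Bub1b. Size went with signal. Of 12 kept member probe sets with a mean signal under 100, 6 (50%) differed by more than 0.5 in either direction, and of 75 at 100 or more, 5 did (6.67%). Over all kept probe sets those shares were 23.5% and 5.35%. The median standard error was 0.34 for the dim member probe sets and 0.11 for the others.

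**Figure D4:**
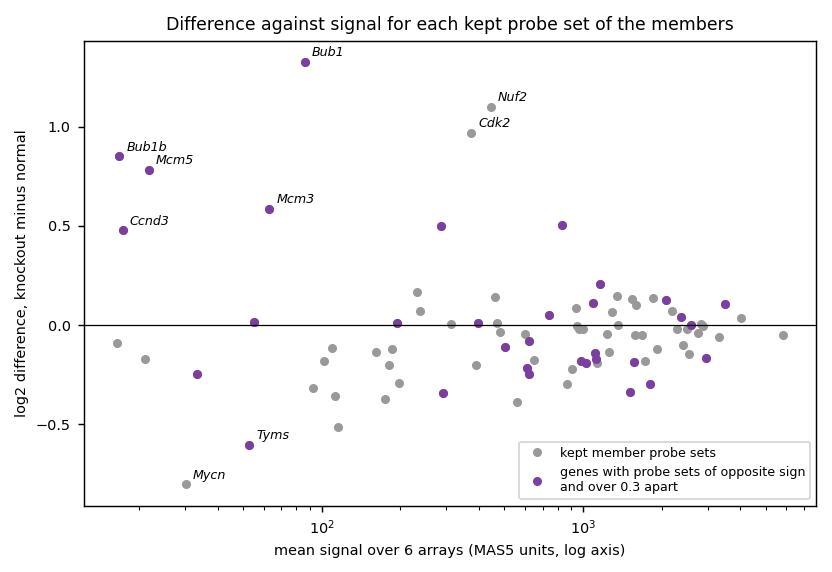
Log2 difference (knockout minus normal, y axis) against mean signal over 6 arrays (x axis, log scale) for the 87 kept probe sets of the cell cycle genes; purple points belong to the 10 genes whose probe sets had opposite signs more than 0.3 apart. Differences of more than 0.5 in either direction take a larger share at low signal, with 6 of 12 probe sets under a signal of 100. At 100 or more 5 of 75 exceed 0.5, the largest of them Nuf2 and Cdk2.

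Across arrays, the level of the list varied more within each group than between group means. Relative to the normal mean, the 41 genes averaged -0.12, 0.11 and 0.00 (log2) on normal arrays 1 to 3, against 0.02, -0.07 and 0.03 on knockout arrays 1 to 3. Normal replicate 2 was the highest array for 21 of the 41 genes and normal replicate 1 the lowest for 19, where these arrays were highest for 20.2% and lowest for 24.0% of all genes. Knockout replicate 2 was the lowest for 14 and the highest for 0, where it was lowest for 16.9% and highest for 18.3% of all genes. The replication group stood at -0.13, 0.14 and -0.01 in normal and -0.08, -0.17 and -0.03 in knockout arrays, so that knockout replicate 2 was its lowest array and normal replicate 2 its highest. The 5 checkpoint and kinetochore genes were the 1 group with all knockout arrays (0.28, 0.14 and 0.24) above all normal ones (-0.09, 0.03 and 0.06), and that separation rests on Nuf2. The other 4 genes averaged -0.16, 0.15 and 0.01 on normal arrays and 0.06, -0.08 and 0.02 on knockout arrays, which overlap. Endothelial markers were also uneven between normal arrays, at 0.48, -0.32 and -0.17, and the chromaffin and neural list stood at 1.37, -1.23 and -0.14 in them; muscle markers were highest in knockout replicate 2. Their part in the array levels was not tested. Probe sets whose suffix (_x_at or _s_at) marks probes that may bind other transcripts were low in normal replicate 1, with a median of -0.20 over the 20 in the list, against -0.03 over the 67 others. Over all kept probe sets the medians in that array were -0.04 with such a suffix and 0.06 without. Between groups, the median log2 difference was 0.00 over the 20 and -0.09 over the 67. For all kept probe sets it was 0.03 with such a suffix and -0.02 without.

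**Figure D5:**
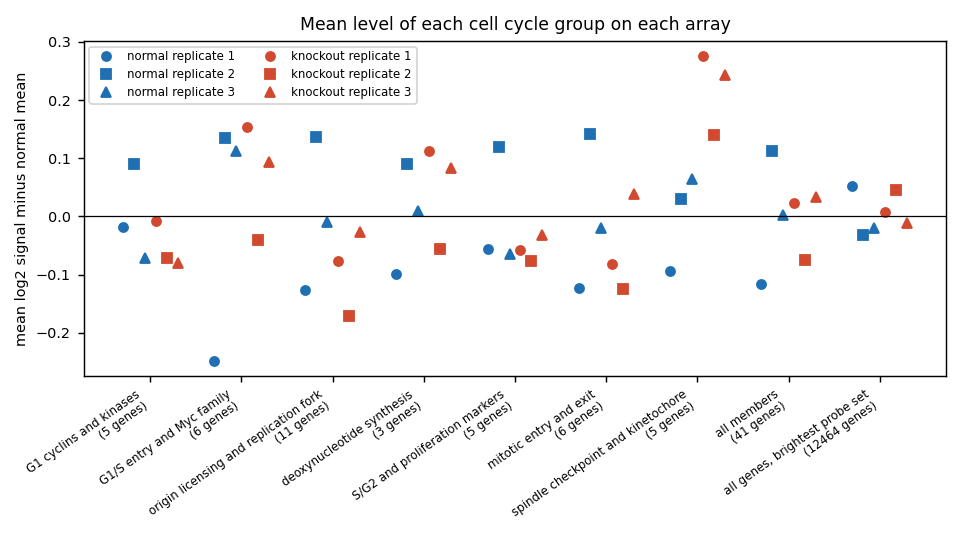
Mean log2 signal of each group of cell cycle genes on each array minus the normal mean (y axis), with normal arrays in blue, knockout arrays in red and symbols for replicate number; the last column gives all 12464 genes. Normal replicates 1 and 2 lie at opposite ends in several groups, and among the 7 groups the checkpoint and kinetochore group alone has all red points above all blue ones, which rests on Nuf2: without it the other 4 genes of the group ran from -0.16 to 0.15 on normal and from -0.08 to 0.06 on knockout arrays.

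A wider list of 104 cell cycle genes outside the members, of which 102 were measured, also lay near 0. None passed the adjusted threshold of the limma fit, 7 were lower (6.86%) and 2 higher (1.96%) at an unadjusted p under 0.05, beside 5.57% and 6.14% of all genes, and their median difference was -0.03. The smallest p-values belonged to Orc6, a subunit of the origin recognition complex, at 0.59 (SE 0.13), the condensin subunit Ncapd2 at 0.57 (SE 0.16), the repressor E2f6 at -0.38 (SE 0.11) and securin (Pttg1) at -0.40 (SE 0.12). Orc6 read 386, 456 and 542.5 on the normal arrays and 667.5, 654 and 745 on the knockout arrays, without overlap (limma adjusted p = 0.118). Among inhibitors of cyclin-dependent kinases, Cdkn1b stood at 0.27 (SE 0.12), Cdkn1c at 0.16 (SE 0.08) and Cdkn1a at 0.29 (SE 0.30). Cdkn2c stood at 0.44 (SE 0.24) and Cdkn2d at 0.18 (SE 0.12), and none of the inhibitors passed. Knockout arrays lay entirely above the normal ones for Cdkn1b alone of these, as for 9.17% of all kept probe sets.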

How the data were processed

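Labelled RNA of embryonic kidneys was hybridised to 6 single-colour arrays, 3 per group. The deposited values are linear intensity signals of 45101 probe sets, and per the submitters' processing notes the authors made them with MAS5. All 6 arrays have a trimmed mean of 150.0. The sources used here give no software version or settings. The number of arrays limits the precision. Of the probe sets outside 64 controls, 34945 had 1 gene symbol in the platform annotation, 932 several and 9160 none.

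Signals were taken as log2 after 15 zeros were set to 1.7, and probe sets with a mean above the 40th percentile were kept. Knockout was compared with normal by limma 3.58.1 (R 4.3.3) with lmFit and eBayes with an intensity trend over the 27022 kept probe sets, two-sided with Benjamini-Hochberg adjustment at 0.05. Alternatives covered scaling, filter, pseudocount, variance trend, array weights, replicate block, gene means and omitted arrays. A later alternative, chosen after seeing the data, left out both arrays numbered 1.

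The members and lists were chosen with earlier results of these data known. Values on every array are given for member probe sets with an unadjusted p under 0.05, the 2 largest rises and 2 largest falls, genes whose probe sets differ in sign by more than 0.3, and Ccnd1, Myc, Mycn, Mki67, Pcna, Top2a and Cdk1. Of the other cell cycle genes the 4 with the smallest p are named. Spc24 and Spc25, the neighbours of Nuf2 and the inhibitors of cyclin-dependent kinases were chosen after values were seen.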

Additional observations from a re-analysis of the deposited data

How the results depend on the processing

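Over 46 probe sets with values in the text and 16 alternative settings, 649 of 704 log2 differences kept their direction and their side of the threshold, 39 changed sign and 16 kept the direction but no longer passed. All of those 16 belong to Nuf2 and the dim Bub1 probe set. The count of 2 member probe sets past the threshold was 1 without the filter, with array weights, with the replicate block and by gene means, 0 without the intensity trend and 0 without both arrays numbered 1, and it ranged from 0 to 1 with 1 array left out. The 10 lower probe sets at an unadjusted p under 0.05 were 4 with median scaling and 14 with quantile normalization. They were 4 without the trend, 2 genes by gene means, and 2 to 16 with 1 array left out. The 5 higher ones were 3 genes by gene means and 3 to 7 with 1 array left out. The median of -0.05 was -0.11 without both arrays numbered 1 and ran from -0.086 to 0.020 with 1 array left out. Over all kept probe sets the 157 calls became 41 without the trend, 65 genes by gene means, 31 without both arrays numbered 1 and 49 to 148 with 1 array left out. The cause of these changes was not tested.

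The sample titles do not say whether replicate numbers pair the samples. Arrays with the same number had deviations that correlated at 0.08, -0.11 and -0.20, and those with different numbers from -0.23 to 0.30. With 3 arrays per group these values cannot settle whether a pairing exists. With the replicate block Nuf2 passed (limma adjusted p = 0.0241), Bub1 1438571_at did not (0.0842), 7 member probe sets were lower and 5 higher at an unadjusted p under 0.05, and 109 probe sets passed in all.

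None of the 39 sign changes concerned a probe set that had passed. Without both arrays numbered 1, Ccnd1 1417419_at stood at -0.094, Ccnd2 1430127_a_at at -0.11, Ccnd2 1455956_x_at at -0.12, Mcm3 1449705_x_at at -0.050 and Mki67 at -0.13. With array weights Ccnd2 1430127_a_at stood at -0.0038, Ccnd2 1416124_at at -0.012 and Ccne1 1441910_x_at at -0.060. Median scaling put Mcm5 1436808_x_at at 0.015. Gene means put Ccnd3 at 0.016, Ccne1 at -0.17, Mcm3 at 0.019, Mcm5 at 0.20, Tyms at -0.29, Bub1 at 0.59 and Bub1b at 0.18. With 1 array left out, the ranges that crossed 0 were -0.031 to 0.24 for Ccnd1 1417419_at, -0.084 to 0.12 for Ccnd2 1430127_a_at, -0.082 to 0.26 for 1455956_x_at, -0.056 to 0.061 for 1416124_at, -0.42 to 0.017 for Ccnd3 1444323_at, -0.10 to 0.13 for Ccne1 1441910_x_at, -0.088 to 0.024 for Myc, -0.025 to 0.17 for Mcm3 1449705_x_at, -0.12 to 0.059 for Mcm5 1436808_x_at, -0.15 to 0.044 for Pcna, -0.048 to 0.13 for Tyms 1442192_at, -0.11 to 0.020 for Cdk1, -0.076 to 0.15 for Mki67 and -0.19 to 0.063 for Bub1b 1447363_s_at.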
